A study of Bos taurus with 18 samples.

Results

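Glucocorticoid-induced genes are genes whose transcription rises when cortisol, the stress hormone of cattle, binds its receptor. The 5 examined here were DDIT4, TSC22D3, FKBP5, PER1 and MT2A, taken as every probe set whose annotated symbol was exactly one of these names. Of the 5 genes, 3 had a probe set, with 1 probe set each, among the 24016 probe sets and 9155 named genes tested. These were DDIT4 (Entrez gene 529235), MT2A (Entrez gene 404070) and FKBP5 (Entrez gene 535704). TSC22D3, which encodes an anti-inflammatory leucine zipper protein, and PER1, a repressor of the circadian clock, had no probe set under their symbols and are not analysed here.

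RNA came from the somatic cells of milk, a mixture of leukocytes and epithelial cells shed from the udder, with 1 Affymetrix bovine array for each of 18 cows. Of these cows 6 had mastitis, an inflammation of the udder, 6 had endometritis, in which the uterine lining is inflamed, and 6 were healthy. The labels place the diseased cows in lactations 1 to 8 and at 10 to 220 days after calving, and name no pathogen, severity or treatment, so whether any cow had received a glucocorticoid is not given. The healthy cows had under 100000 cells per ml of milk, and most were sampled at 10 to 100 days after calving. Their labels give an age of 2 to 4 years and also an 8th lactation, which cannot both hold for 1 cow. No genotype or breed is given. The animals were separate, so the p-values measure the spread between cows, and 6 arrays per group limit the precision of every value.

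Cortisol crosses the cell membrane and binds the glucocorticoid receptor NR3C1, which is held ready in the cytoplasm by HSP90 and partner proteins. The bound receptor moves to the nucleus, where it switches on one set of genes and restrains many inflammatory ones. In the lactating udder glucocorticoids act with prolactin to keep milk protein genes active, and in neutrophils they change adhesion and survival. The members are not read by this hormone alone: DDIT4 also responds to low oxygen and to endoplasmic reticulum stress, and MT2A to zinc and other metals.

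Values are log2 normalised intensities, on which a difference of 1 is a 2-fold difference. Differences are given with the standard error (SE) and the Benjamini-Hochberg adjusted p of limma's two-sided test, fitted to all 24016 probe sets. Probe sets with an adjusted p under 0.05 are said to be called, or to have passed. A gene was taken as at background in a group when all 6 arrays lay at or under 2.55, the median of all deposited values.

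DDIT4 encodes a stress protein that restrains the growth kinase mTOR. Its level was 12.02, 12.14, 11.47, 12.59, 10.82 and 12.14 on the 6 mastitis arrays. On the endometritis arrays it was 6.78, 7.25, 6.25, 8.50, 7.21 and 9.52. On the healthy arrays it was 8.86, 6.60, 7.08, 7.51, 6.87 and 7.48. Every mastitis array lay above every endometritis and every healthy array, while the endometritis and healthy arrays overlapped over most of their ranges. The share of all probe sets that separate the groups in this way is not given here.

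DDIT4 averaged 11.86 ± 0.62 in mastitis and 7.40 ± 0.80 in healthy milk cells (SD, n = 6 each). It rose by 4.46 ± 0.51 (SE; 95% interval 3.37 to 5.56) in mastitis against healthy, a 22.0-fold difference with an interval of 10.3 to 47.0 (limma adjusted p = 4.87e-05). Ordered by the size of the rise, DDIT4 was at rank 18 of the 9155 named genes. In this comparison 19.5% of all probe sets were called, and 1 of the 3 member probe sets was.

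**Figure D1:**
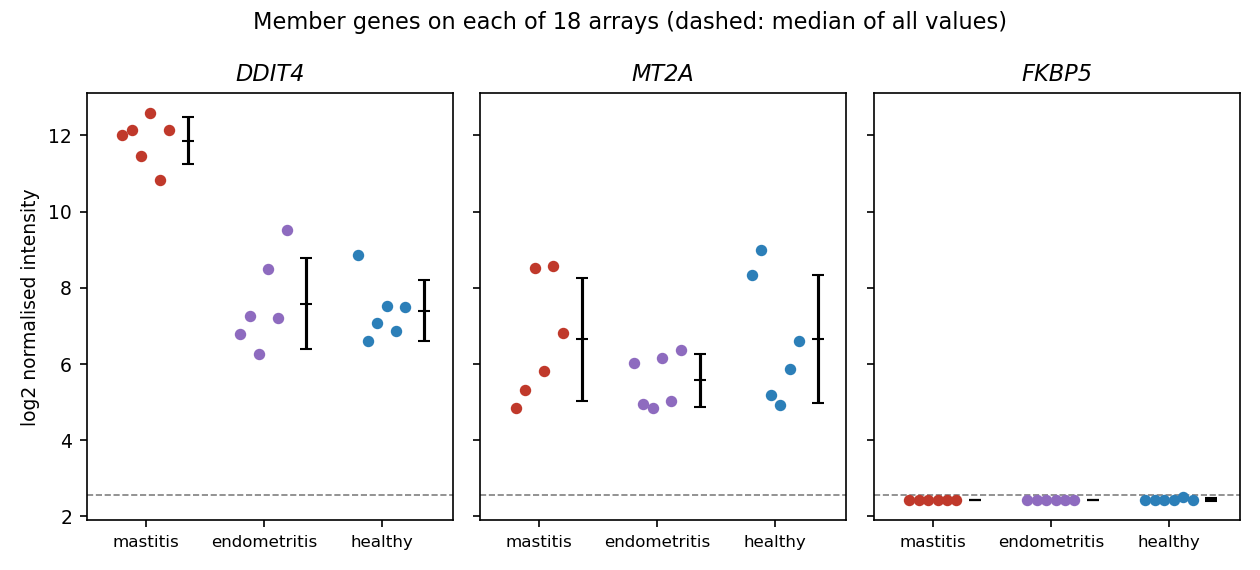
Log2 normalised intensity of DDIT4, MT2A and FKBP5 (vertical axis) on each of the 18 arrays, by group; each point is 1 cow, bars are the mean ± SD of 6 cows and the dashed line is the median of all deposited values, 2.55. DDIT4 is between 10.82 and 12.59 on all mastitis arrays and at most 9.52 elsewhere, MT2A spreads widely within groups, and FKBP5 lies under the dashed line throughout.

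Against endometritis the DDIT4 difference was nearly as large. DDIT4 averaged 7.59 ± 1.20 in endometritis (SD, n = 6), and mastitis was higher by 4.28 ± 0.51 (SE; 95% interval 3.19 to 5.37), or 19.4-fold (limma adjusted p = 9.36e-05; 14.5% of probe sets called). Endometritis differed from healthy by 0.18 ± 0.51 (SE), and limma's adjusted p was 1. The interval of that difference ran from -0.91 to 1.28, so changes of about 2-fold in either direction remain within it. Only 2 of the 6 endometritis arrays lay above the healthy mean, and without endometritis array 6, the highest of its group, the difference was -0.20.

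**Figure D2:**
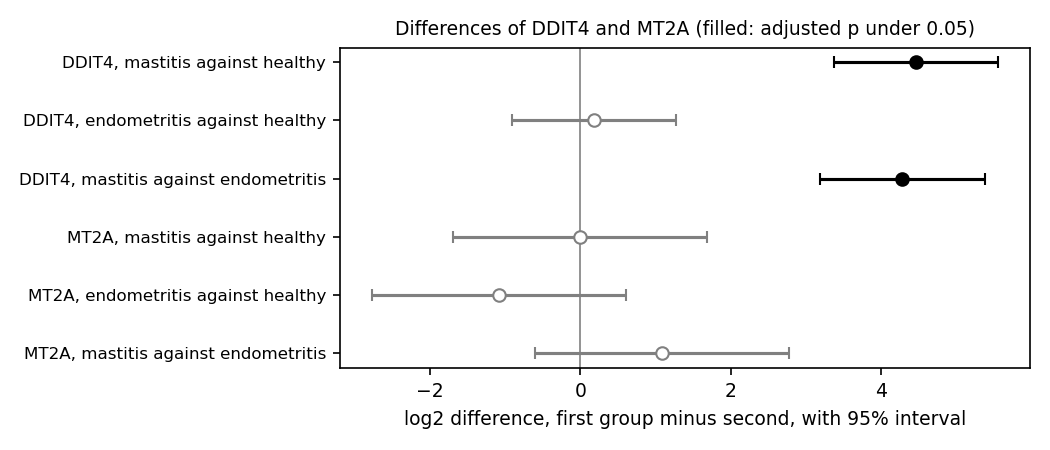
Log2 differences of DDIT4 and MT2A (horizontal axis, first-named group minus second) in the 3 comparisons; points are limma estimates from 6 arrays per group, bars are 95% intervals and filled points have an adjusted p under 0.05. DDIT4 lies at 4.46 and 4.28 in both comparisons with mastitis, and the intervals of the 4 other differences include 0.

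DDIT4 varied more between cows of 1 group than most genes. Its within-group SD was 0.91, and 9.02% of the 12782 probe sets with a mean above background had a larger one, against a median SD of 0.42. Within their own groups, endometritis array 6 and healthy array 1 had both the highest DDIT4 and the highest mean of 12 neutrophil markers. That marker mean ran from 7.26 to 8.57 on mastitis arrays, from 4.04 to 6.09 on endometritis arrays and from 4.64 to 6.05 on healthy arrays, so it separated mastitis from the rest as DDIT4 did. Pearson's r between DDIT4 and the marker mean was 0.77 in mastitis, 0.90 in endometritis and 0.69 in healthy arrays (n = 6 each; exact permutation p = 0.0708, 0.0194 and 0.164, and 0.106, 0.075 and 0.184 after adjustment over 9 relations). Spearman's rho was 0.66, 0.60 and -0.09 in these groups (exact permutation p = 0.175, 0.242 and 0.919, adjusted 0.311, 0.311 and 0.919). Without the 2 arrays of each group farthest from the median in DDIT4, r was 0.03, -0.07 and -0.77 (n = 4 each). Leaving out the extremes of DDIT4 narrows its range, which can by itself weaken r. Whether the relation rested on those arrays was therefore not tested. The pair was chosen after its values were seen.

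**Figure D3:**
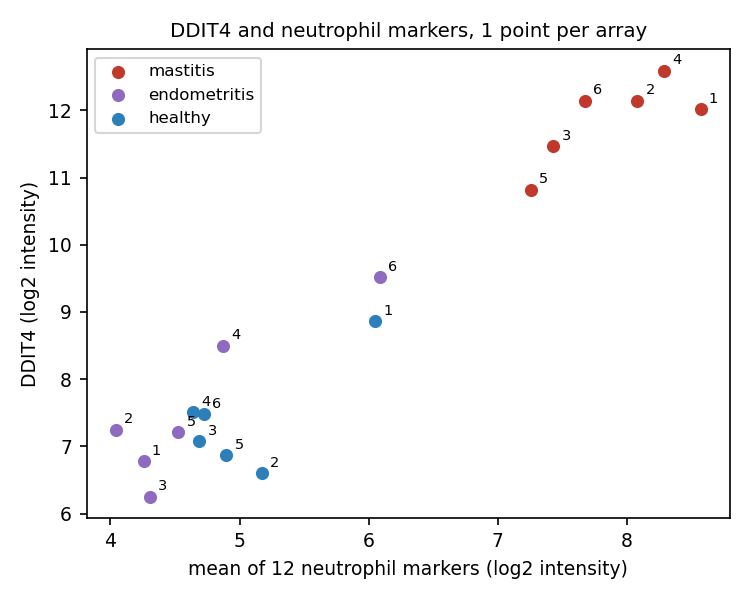
DDIT4 (vertical axis, log2 intensity) against the mean of 12 neutrophil markers (horizontal axis, log2 intensity); each point is 1 array, numbered within its group. The 6 mastitis arrays stand apart at marker means of 7.26 and above, and endometritis array 6 and healthy array 1 lie between them and the others.

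Marker RNA of some cell types also differed between mastitis and healthy arrays. Of the 12 neutrophil markers measured, 8 rose in mastitis against healthy, 1 fell and 3 did not pass, with a median difference of 3.41 beside -0.01 over all genes. Over all 9155 genes 11.3% rose and 15.8% fell. VNN2 and NCF1, a neutrophil surface enzyme and a subunit of the oxidase of phagocytes, rose by 4.88 and 4.89. The neutrophil marker that fell was LTF, which is part of the mean of the 12 markers. Of 15 mammary secretory markers 13 fell, with a median of -5.64, among them the milk proteins GLYCAM1 and PAEP. The mean level of the secretory list ran from 5.41 to 8.23 in mastitis, from 8.91 to 11.95 in endometritis and from 10.41 to 11.92 in healthy arrays. Of 11 epithelial structure markers 8 fell, and KRT8, CLDN3, ESRP1 and ELF3 were at background in mastitis (KRT8 and ELF3 in endometritis, KRT8 in healthy). None of 9 macrophage and 11 T cell markers passed in limma in either direction (1 and 0 at an unadjusted p under 0.05). ELANE, a neutrophil granule protease, was at background in endometritis and healthy arrays, and CD4, a T cell marker, in all groups.

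With the neutrophil and secretory means as covariates, the DDIT4 difference between mastitis and healthy was -0.26 with an interval of -2.70 to 2.18 (limma adjusted p = 1), and that between mastitis and endometritis was -0.80 with an interval of -3.27 to 1.66 (limma adjusted p = 0.822). The covariates separate the groups themselves, so cell makeup and disease cannot be told apart here. In bulk RNA, more cells of a type and more RNA per cell cannot be told apart either. The difference between GAPDH control probe sets at the ends of the transcript, a measure of RNA integrity, averaged 0.39 ± 0.23 in mastitis, 0.58 ± 0.25 in endometritis and 0.88 ± 0.40 in healthy arrays (SD, n = 6 each). With it as a covariate DDIT4 was 3.97 higher in mastitis than in healthy arrays (limma adjusted p = 0.00224). The average of this measure also differed between the groups, so RNA integrity and disease cannot be cleanly told apart here.

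The titles carry a number whose meaning the labels do not give, and it split the arrays at 120. DDIT4 was higher in mastitis than in healthy by 4.47 among arrays up to 120 (4 and 3 arrays; limma adjusted p = 0.0438) and by 4.57 above it (2 and 3 arrays; limma adjusted p = 0.0312).

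The genes whose deviations from the group means were most like those of DDIT4, among 6548 genes over 18 arrays, were MKNK1 (Pearson's r = 0.87), a kinase that phosphorylates a translation initiation factor, PSTPIP2 (0.86), a membrane-bending adaptor of myeloid cells, and KLF10 (0.85), a zinc finger repressor. In mastitis against healthy MKNK1 rose by 3.60, PSTPIP2 by 5.33 and KLF10 by 2.04 (limma adjusted p = 0.000247, 4.56e-05 and 0.0123). These were picked as the highest of many and carry no test of likeness.

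MT2A encodes a metallothionein, a small cysteine-rich protein that binds zinc and copper. Its level was 4.85, 5.31, 8.53, 5.82, 8.58 and 6.81 on the mastitis arrays. On the endometritis arrays it was 6.03, 4.95, 4.85, 6.16, 5.04 and 6.38. On the healthy arrays it was 8.33, 8.98, 5.19, 4.92, 5.88 and 6.61. Mastitis and healthy arrays spanned nearly the same range, each with 2 arrays above 8, and the endometritis arrays lay within the lower part of it.

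MT2A averaged 6.65 ± 1.61 in mastitis and 6.65 ± 1.67 in healthy arrays (SD, n = 6 each). The difference was -0.00 ± 0.79 (SE; limma adjusted p = 1), with an interval of -1.69 to 1.68 that leaves room for changes of about 3-fold either way. In endometritis it averaged 5.57 ± 0.69 (SD, n = 6), 1.08 below healthy (limma adjusted p = 0.925; interval of the difference -2.77 to 0.60). None of the 6 endometritis arrays lay above the healthy mean, but the groups overlapped and the difference did not pass. Mastitis against endometritis gave 1.08 ± 0.79 (SE; limma adjusted p = 0.444; interval -0.60 to 2.77).

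The spread of MT2A between cows of 1 group was large. Its within-group SD was 1.40, and 1.66% of the 12782 probe sets above background had a larger one. In mastitis the 4 arrays with a title number up to 120 read 5.82 to 8.58 and the 2 above it 4.85 to 5.31. In healthy arrays the order was the other way: 4.92 to 6.61 up to 120 and 5.19 to 8.98 above it (n = 3 each). Between mastitis and healthy the MT2A difference was 1.63 among arrays up to 120 and -2.42 above it, and neither passed (limma adjusted p = 0.397 and 0.26). With the neutrophil and secretory covariates it was -4.21, with an interval of -10.57 to 2.15 (limma adjusted p = 0.583). The lowest MT2A value, 4.85, occurred identically on 2 arrays, mastitis 1 and endometritis 3, and can be a floor of this probe set. A lowest value shared by several arrays was found for 10.5% of the probe sets above background.

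MT1A, another metallothionein, was the gene most like MT2A in its deviations from the group means (Pearson's r = 0.80, 6548 genes, 18 arrays). MT1A read 2.59, 2.59, 3.40, 2.99, 3.79 and 2.81 on mastitis arrays. It read 4.17, 3.51, 2.71, 4.88, 2.74 and 4.32 on endometritis arrays, and 7.72, 7.44, 4.17, 2.58, 3.92 and 3.78 on healthy arrays. Healthy arrays 1 and 2 were the highest of their group for both metallothioneins, and so were mastitis arrays 3 and 5 in theirs.

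MT1A was 1.91 lower in mastitis than in healthy arrays and 1.22 lower in endometritis, and neither difference passed (limma adjusted p = 0.101 and 0.925). The first passed in 3 of 29 alternatives: with dim probe sets left out, with array weights and without healthy array 4 (limma adjusted p = 0.0469, 0.0441 and 0.0377). Pearson's r between MT2A and MT1A was 0.92 in mastitis, 0.90 in endometritis and 0.93 in healthy arrays (n = 6 each; exact permutation p = 0.0139, 0.05 and 0.025, and 0.075, 0.106 and 0.075 after adjustment over 9 relations). Spearman's rho was 0.93, 0.89 and 0.71 (exact permutation p = 0.0222, 0.0333 and 0.136, adjusted 0.15, 0.15 and 0.306), and r without the 2 arrays farthest from the median in MT2A was 0.61, 0.89 and 0.45. The pair was chosen after its values were seen, and MT1A was the most like MT2A of 6548 genes on these same arrays. The adjustment over 9 relations does not cover that choice, so these p-values do not test the relation. Metallothionein genes are close in sequence, so their probe sets may share signal, which was not tested.

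**Figure D4:**
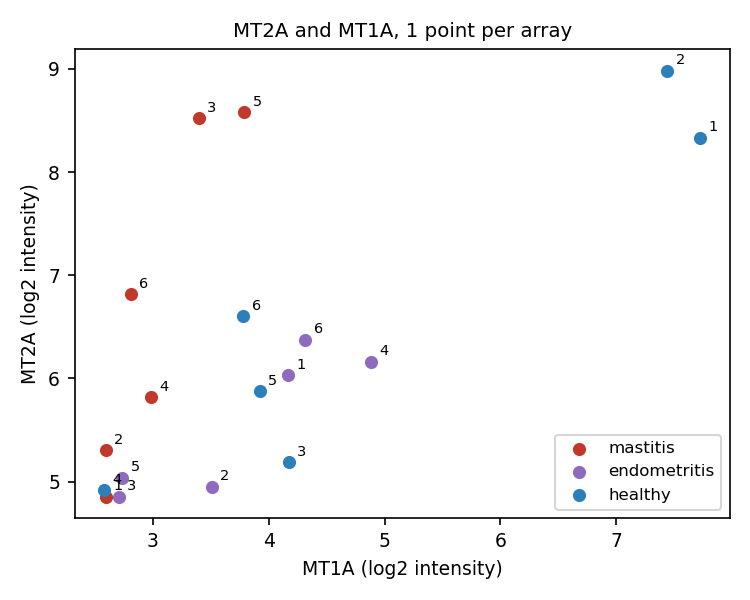
MT2A (vertical axis) against MT1A (horizontal axis), both as log2 intensity; each point is 1 array, numbered within its group. Mastitis arrays 3 and 5 are high in MT2A, at 8.53 and 8.58, with MT1A at 3.40 and 3.79, and healthy arrays 1 and 2 are high in both genes.

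The next genes by likeness to MT2A were NUCKS1 (Pearson's r = 0.80), a nuclear DNA-binding protein, and NMT1 (0.80), which attaches myristate to proteins. Within groups r with NUCKS1 was 0.99 in mastitis, 0.01 in endometritis and 0.78 in healthy arrays, and with NMT1 it was 0.98, 0.61 and 0.89 (n = 6 each). NUCKS1 fell by 1.66 in mastitis against healthy (limma adjusted p = 0.000473), and NMT1 differed by -0.28 and did not pass (limma adjusted p = 0.473).

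The correlation of MT2A with DDIT4 had no common sign over the groups. Pearson's r was -0.79 in mastitis, 0.74 in endometritis and 0.19 in healthy arrays (n = 6 each; exact permutation p = 0.0597, 0.104 and 0.761, adjusted 0.106, 0.134 and 0.761 over 9 relations). Spearman's rho was -0.60, 0.77 and -0.26 (exact permutation p = 0.242, 0.103 and 0.658, adjusted 0.311, 0.306 and 0.741). Without the 2 arrays farthest in DDIT4 r was 0.26, -0.01 and 0.03 (n = 4 each), over a narrower range of DDIT4, which can by itself weaken r.

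FKBP5 encodes a co-chaperone that lowers the receptor's affinity for cortisol and is itself induced by it, closing a feedback loop. Its probe set was at background in all 3 groups: all 6 mastitis arrays read 2.43, the lowest value of the table, as did 5 endometritis and 5 healthy arrays. The highest reading was 2.51, on healthy array 5. No fold change can be given, and limma's adjusted p was 0.472 for mastitis against healthy, 0.925 for endometritis against healthy and 1 for mastitis against endometritis. These readings say nothing of FKBP5 transcript below the detection of this probe set.

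Beyond the members, genes that glucocorticoids are known to induce in other cells, largely human and rodent, were listed with earlier results of these data known. Of 19 measured, 9 rose in mastitis against healthy, 0 fell and 10 did not pass, with a median difference of 1.28, while over all 9155 genes 11.3% rose, 15.8% fell and the median was -0.01. Many of these genes are also induced by inflammatory signals. CEBPB, a transcription factor of myeloid cells and of inflammation, read 6.65 to 9.22 (median 7.81) on mastitis arrays and 3.17 to 4.61 (median 3.55) on healthy arrays. It rose by 4.05 ± 0.51 (SE; limma adjusted p = 9.71e-05), on 1 of 2 probe sets.

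IL1R2, the decoy receptor for interleukin-1, read 3.70 to 8.26 on mastitis arrays and 2.52 to 2.81 on healthy arrays, a rise of 3.41 ± 0.65 (SE; limma adjusted p = 0.00175). ZFP36, which speeds the decay of cytokine mRNAs, rose by 3.47 (limma adjusted p = 0.00146). DUSP1, a phosphatase that switches off stress kinases, rose by 2.91 (limma adjusted p = 0.00465), and GADD45B, a stress-response protein, rose by 2.18 (limma adjusted p = 0.0022). SGK1, a kinase that controls sodium transport, read 10.89 to 12.41 in mastitis and 7.38 to 10.80 in healthy arrays, and rose by 2.24 ± 0.68 (SE; limma adjusted p = 0.0293; 2 of 3 probe sets). The SGK1 call was lost without mastitis array 1 or 6 or healthy array 3, 4 or 5 (differences 1.89 to 2.20, limma adjusted p = 0.0527 to 0.0713) and with the GAPDH covariate (0.92, limma adjusted p = 0.543). With that covariate DUSP1 was also lost (2.19, limma adjusted p = 0.112). ZBTB16, a zinc finger factor strongly induced by glucocorticoids in human cells, was at background in mastitis and differed by -0.36 from healthy (limma adjusted p = 0.232).

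With the neutrophil and secretory covariates all 21 called genes named here from the 5 pathway lists lost their call in mastitis against healthy. The direction turned for ZFP36, DUSP1 and SGK1, to -3.96, -4.92 and -4.55, and none of the 3 passed. IL1R2 and CEBPB stayed positive under them, at 3.47 and 2.71, and did not pass (limma adjusted p = 0.576 and 0.567).

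**Figure D5:**
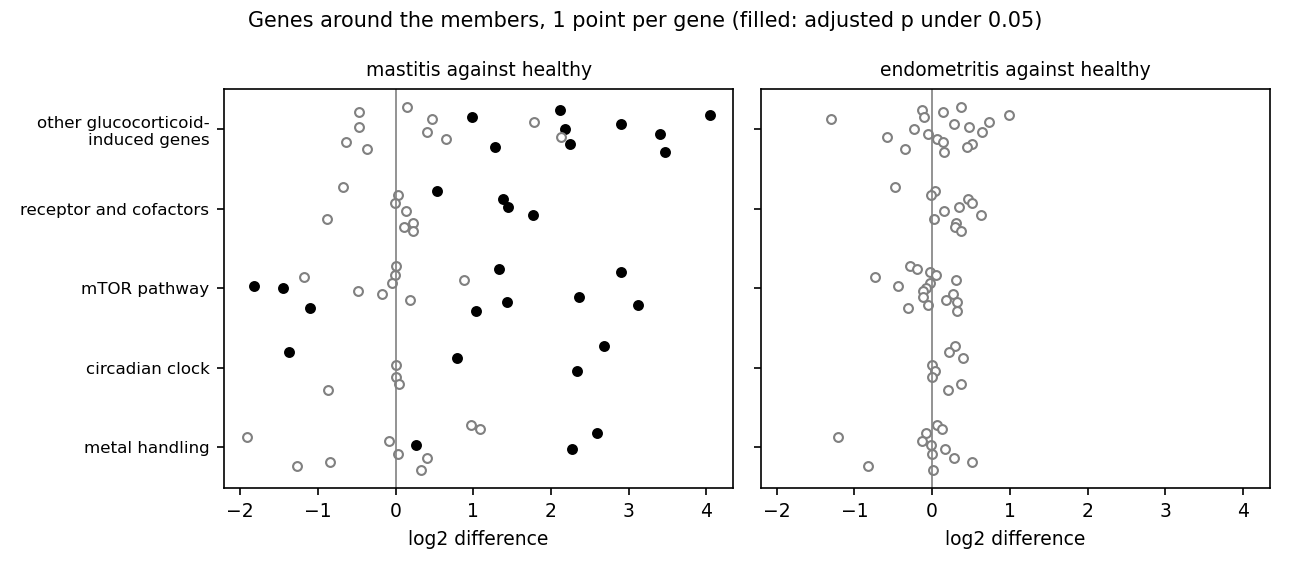
Log2 differences (horizontal axis) of the measured genes of 5 lists, mastitis against healthy on the left and endometritis against healthy on the right; each point is 1 gene, filled where limma's adjusted p is under 0.05. Among other glucocorticoid-induced genes 9 of 19 are filled on the left, all to the right of 0, and no point is filled in endometritis.

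The receptor gene was lower in mastitis by a difference that did not pass. NR3C1 read 6.47, 7.17, 5.17, 5.48, 5.23 and 5.41 on mastitis arrays and 6.26, 6.96, 7.24, 7.25, 6.49 and 5.98 on healthy arrays. The difference was -0.88 ± 0.35 (SE; limma adjusted p = 0.101), with mastitis arrays 1 and 2 inside the healthy range and the other 4 below it. It passed in 3 of 29 alternatives: with dim probe sets left out (limma adjusted p = 0.0494), with array weights (-1.11, limma adjusted p = 0.0213) and without mastitis array 2 (-1.14, limma adjusted p = 0.0171). The other NR3C1 probe set, near background, averaged 2.90 in mastitis and 2.77 in healthy arrays. Of 12 genes for the receptor, its chaperones, cofactors and cortisol-converting enzymes, 4 rose, 0 fell and 8 did not pass, with a median of 0.18. The shares over all 9155 genes were 11.3% higher and 15.8% lower.

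HSP90AA1, a chaperone that holds the receptor, rose by 1.38 (limma adjusted p = 0.0105; 2 of 2 probe sets), and HSPA8, a chaperone of the same cycle, by 1.44 (limma adjusted p = 0.0394). HSP90AB1, another HSP90 gene of the list, differed by -0.01 and did not pass. PTGES3 and STIP1, also listed, were each 0.22 higher and did not pass (limma adjusted p = 0.670 and 0.692). HSP90AB1, PTGES3 and STIP1 were named after their values were seen. NCOR1, a corepressor of nuclear receptors, rose by 1.77 on 2 of 5 probe sets (limma adjusted p = 0.000102). HSD11B1, the enzyme that regenerates cortisol from cortisone, read 2.72 to 3.18 in mastitis and was at background in healthy arrays, so it was at least 1.35-fold higher (limma adjusted p = 4.77e-05). FKBP4, a co-chaperone of the same family as FKBP5, was 0.68 lower in mastitis (limma adjusted p = 0.141) and did not pass. HSP90AA1 and HSPA8 were lost with the GAPDH covariate (0.92 and 0.66, limma adjusted p = 0.223 and 0.569), and HSPA8 in 8 of 18 fits that left out 1 array (limma adjusted p = 0.0566 to 0.0967). With the neutrophil and secretory covariates NCOR1 was 0.38 higher (limma adjusted p = 0.94), and HSP90AA1 and HSPA8 turned to -0.41 and -1.21.

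DDIT4 acts on mTOR through the TSC1 and TSC2 complex, which holds the small GTPase RHEB inactive. Of 17 genes around this pathway 6 rose in mastitis against healthy, 3 fell and 8 did not pass, with a median of 0.00. Beside them, 11.3% of all 9155 genes rose and 15.8% fell. TSC1 read 3.89 to 5.02 in mastitis and 2.61 to 3.13 in healthy arrays and rose by 1.44 (limma adjusted p = 0.000997). RHEB read 5.07 to 6.16 in mastitis and 6.95 to 7.82 in healthy arrays and fell by 1.82 on the log2 scale (limma adjusted p = 0.000133). Neither gene's groups overlapped, and the share of all genes without overlap is not given here.

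DDIT3, a transcription factor of endoplasmic reticulum stress, rose by 2.91 (limma adjusted p = 0.000169) and VEGFA, an angiogenic factor induced by low oxygen, by 3.12 (limma adjusted p = 0.000556; 2 of 2 probe sets). RPTOR, the scaffold of the mTOR complex, differed by -0.17 and did not pass (limma adjusted p = 0.284). With the neutrophil and secretory covariates RHEB turned to 0.59 and VEGFA to -1.63, and neither passed.

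Among 8 clock genes, measured here without PER1, 3 rose, 1 fell and 4 did not pass, with a median of 0.02. The shares over all 9155 genes were 11.3% higher and 15.8% lower. CRY1, a clock repressor that also binds the glucocorticoid receptor in mice, read 4.03 to 5.40 in mastitis and 5.68 to 6.54 in healthy arrays and fell by 1.37 on the log2 scale (limma adjusted p = 0.00156). BHLHE40, a repressor of clock transcription, rose by 2.68 (limma adjusted p = 0.000165; 2 of 2 probe sets), and NFIL3, a repressor of clock output genes, rose by 2.34 (limma adjusted p = 0.00346; 2 of 2 probe sets). CSNK1D, a kinase of the PER proteins, rose by 0.79 on 1 of 4 probe sets (limma adjusted p = 0.0435), a call lost in 11 of 18 fits that left out 1 array (limma adjusted p = 0.050 to 0.103). PER2 lay near background in mastitis, at 2.45 to 2.66, and at background in healthy arrays, and did not pass (limma adjusted p = 0.94). NFIL3 did not pass with the GAPDH covariate (1.82, limma adjusted p = 0.0874). With the neutrophil and secretory covariates BHLHE40 was 0.22 higher and CRY1 differed by -0.52 (limma adjusted p = 1 and 0.915), and NFIL3 and CSNK1D turned to -1.67 and -0.18.

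Among 12 metal handling genes 3 rose, 0 fell and 9 did not pass, with a median of 0.29. Over all 9155 genes 11.3% rose and 15.8% fell, so the count called, taken without regard to direction, is near that of genes in general. MTF1, the zinc sensor that drives metallothionein genes, rose by 0.26 (limma adjusted p = 0.0107), near background in both groups. Its call was lost under median centring, hybridisation scaling and the GAPDH covariate (limma adjusted p = 0.0734, 0.281 and 0.0656), and with the neutrophil and secretory covariates it was 0.065 higher (limma adjusted p = 0.999). SLC11A1, a metal transporter of phagosomes, rose by 2.27 (limma adjusted p = 0.0383), and HMOX1, the haem-degrading enzyme, by 2.59 (limma adjusted p = 0.0498). Leaving out 1 array ended the SLC11A1 call in 8 of 18 fits (limma adjusted p = 0.0528 to 0.0904) and the HMOX1 call in 12 of 18 (limma adjusted p = 0.0531 to 0.116). With the GAPDH covariate they were 0.91 and 1.02 higher (limma adjusted p = 0.600 and 0.653), and with the neutrophil and secretory covariates they turned to -6.45 and -7.16. FTH1, the ferritin heavy chain, was 0.97 higher (limma adjusted p = 0.0644), and MT3, a metallothionein first known from brain, differed by -0.08 (limma adjusted p = 0.596). Neither passed, though FTH1 did in 8 of 29 alternatives.

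In endometritis against healthy limma called 0 of the 24016 probe sets (0%), of which 1047 had an unadjusted p under 0.05, and so 0 of the 3 members and 0 of the 68 genes of these 5 lists. None of the members and 3 of the 68 genes had an unadjusted p under 0.05. These 3 were PER2 (0.37 higher), RPTOR (0.26 higher) and the NCOR1 corepressor (0.62 higher), each with a limma adjusted p of 0.925. PER2 was at background in healthy arrays. In endometritis it read 3.34 and 3.61 on arrays 2 and 4, and 2.44 to 2.69 on the others. The list medians were 0.14 for other glucocorticoid-induced genes, 0.30 for the receptor and its cofactors, -0.05 for the mTOR pathway, 0.21 for the clock and 0.00 for metal handling.

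Mastitis against endometritis shares its mastitis arrays with the first comparison, and gave 8 higher and 2 lower of the 19 other glucocorticoid-induced genes. CEBPB was higher by 3.05, IL1R2 by 3.46, DUSP1 by 2.62 and ZFP36 by 3.31 (limma adjusted p = 0.00103, 0.00234, 0.0118 and 0.00285), while SGK1 was 1.73 higher and did not pass (limma adjusted p = 0.11). ERRFI1, an inhibitor of the EGF receptor, and CDKN1C, a cell cycle inhibitor, were the 2 that fell, by 0.94 and 0.61 (limma adjusted p = 0.0353 and 0.0231; named after their values were seen). The receptor list gave 2 higher and 0 lower, the mTOR list 5 and 3, the clock list 2 and 1 and the metal list 1 and 1, beside 9.1% higher and 10.9% lower over all genes. NR3C1 was 0.89 lower in mastitis than in endometritis and did not pass (limma adjusted p = 0.11).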

How the data were processed

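The authors deposited 1 table of 24128 probe sets on 18 arrays, read here as log2 normalised intensity. RMA, GCRMA and limma appear in the submitters' processing notes without version or order. Neither the program behind the values nor the log base is stated there. Per the labels' protocols, RNA was labelled with a kit that primes at the poly-A tail. Of the probe sets 112 were controls and 24016 were tested.

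A model with 3 group terms was fitted to all 18 arrays with limma 3.58.1 in R 4.3.3 (15 residual degrees of freedom), with Benjamini-Hochberg adjustment over all tested probe sets. Where a gene had several probe sets, the one brightest on average over the arrays stood for it. Symbols came from the platform annotation, and all 129 listed genes checked against assembly ARS-UCD2.0 kept their symbol. No coordinates or sequences are given. From each list the up to 4 genes with the smallest p in mastitis against healthy and up to 2 in endometritis against healthy were named, besides NR3C1, SGK1, DUSP1 and PER2. Up to 3 were named per marker list, and 3 genes most like each member. The procedure was tested on simulated data. Members and lists were chosen with earlier results of these data known. Alternatives changed the samples, shrinkage, weights, dim filter, scaling, covariates and title number, and left out each array.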

Additional observations from a re-analysis of the deposited data

Results flagged for a closer look

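Of 89 gene and group combinations examined, each with 6 arrays, 10 had an array far from the other 5, its gap to the nearest exceeding Dixon's critical share of the group's range. Chance alone gives about 1 in 20 for normally distributed values. The HSD11B1, IL1R2, MTF1 and MT3 groups below are low readings, with the other 5 arrays at most 2.80 and close together. That rate need not hold for them. Neither DDIT4 nor MT2A was among the 10, and FKBP5, at background in every group, was not judged in this way. In healthy array 1, which also had the highest DDIT4 of its group, VEGFA read 8.08 against 5.54 to 6.14 on the other healthy arrays, and ZFP36 read 8.32 against 5.44 to 6.31. In endometritis array 6, the highest for DDIT4 in its group, IL1R2 read 2.92 against 2.47 to 2.54. GADD45B read 7.55 on endometritis array 4 against 6.40 to 6.75. Endometritis array 3 stood apart for HSD11B1, at 2.70 against 2.43 to 2.46, and for NCOR1, at 3.86 against 4.56 to 4.94. FKBP4 read 3.13 on mastitis array 2 against 4.51 to 5.21, and MT3 read 3.12 on mastitis array 4 against 2.77 to 2.80. IL1R2 read 2.81 on healthy array 4 against 2.52 to 2.61, and MTF1 read 2.66 on healthy array 5 against 2.51 to 2.52.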

How the results depend on the processing

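DDIT4 stayed called as higher in mastitis in 28 of 29 alternatives against healthy (4.30 to 4.75 on leaving out 1 array) and in 28 of 29 against endometritis. The exception in both was the neutrophil and secretory covariates, with -0.26 and -0.80, under which 0 members were called in either comparison. Several uncalled differences moved or turned sign. DDIT4 in endometritis against healthy was -0.12 with the GAPDH covariate, -0.51 among title numbers up to 120 and -0.20 to 0.48 on leaving out 1 array, below 0 without endometritis array 6. MT2A in mastitis against healthy was 0.042 with array weights, 0.24 scaled to the hybridisation controls, 1.63 among title numbers up to 120, -4.21 with the cell covariates and -0.39 to 0.46 on leaving out 1 array, above 0 without mastitis array 1, 2 or 4 or healthy array 1 or 2. MT2A in endometritis against healthy was 0.23 among title numbers up to 120. In mastitis against endometritis it was -3.02 with the cell covariates and -0.40 among title numbers above 120. Probe sets called in mastitis against healthy numbered 1428 with the GAPDH covariate, 238 with the cell covariates, 2990 scaled to the hybridisation controls, and 2347 above and 119 up to title number 120. That scaling moved the median of probe sets above background by 0.25 in this comparison and called 2043 higher and 947 lower, against 2443 and 2246. In endometritis against healthy, 1 was called with array weights, dim probe sets left out, median centring, hybridisation scaling, or trend and robust shrinkage, 4 above and 531 up to title number 120 (a single endometritis array, assumed to vary like the rest), and 0 to 1 on leaving out 1 array. In mastitis against endometritis, 310 were called with the cell covariates, 2069 with hybridisation scaling and 813 up to title number 120. Under the cell covariates all 21 called named list genes of mastitis against healthy lost their call, and 11 of them turned sign: CSNK1D -0.18, DUSP1 -4.92, HMOX1 -7.16, HSP90AA1 -0.41, HSPA8 -1.21, NFIL3 -1.67, RHEB 0.59, SGK1 -4.55, SLC11A1 -6.45, VEGFA -1.63 and ZFP36 -3.96. Of the same 21 calls, 9 were lost with the GAPDH covariate, 20 among title numbers up to 120 and 14 above it, both with fewer arrays. Before adjustment, some correlations passed only after rescaling: DDIT4 with the neutrophil mean in mastitis was 0.82 under median centring (exact permutation p = 0.0389), DDIT4 with MT2A in endometritis was 0.90 scaled to the hybridisation controls (exact permutation p = 0.0181), and MT2A with MT1A in endometritis was 0.89 and 0.92 under these settings (exact permutation p = 0.0486 and 0.0222). The pairs DDIT4 with the neutrophil mean and MT2A with MT1A were chosen after their values were seen. The other causes were not tested. No other probe set of a member could stand in, since each had 1. The title number as a block moved none of the 29 named list genes across the threshold. No paired analysis was possible because the groups share no animal and the labels state no pairing. Readings near 2.43 limit what can be said of FKBP5.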
